A study of Homo sapiens with 24 samples.

Results

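The genes described here encode the aminoacyl-tRNA synthetases, the enzymes that join each amino acid to its tRNA. They were chosen by symbol from a fixed list, 20 genes for the cytosolic enzymes and 16 for the mitochondrial enzymes, whose symbols end in 2. All 36 are among the 23354 genes of the deposited table of read counts, and all 36 passed the filter on low counts in both cell lines. RNA was sequenced from 2 established human acute myeloid leukemia (AML) lines, MV4-11 and KG-1a, both labelled wild type. The cells were left untreated or received 1 μM 8CA (8-chloro-adenosine) or 1 μM 8AA (8-amino-adenosine) for 8 h or 24 h, with untreated libraries of both times. Each of the 12 groups holds 2 libraries, marked A and B. 8CA and 8AA are adenosine analogs that carry a chlorine atom or an amino group at the same position of the base. No source used here says whether the libraries A and B came from separate cultures, so the p-values measure the spread between these libraries, which may be technical.

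A synthetase recognizes its amino acid and the matching tRNAs, uses ATP to activate the amino acid and transfers it to the tRNA, which then delivers it to the ribosome. Cytosolic and mitochondrial protein synthesis mostly use separate enzymes from separate nuclear genes. GARS and KARS, for glycine and lysine, each supply both compartments from 1 gene. When uncharged tRNA builds up, the kinase GCN2 (EIF2AK4) phosphorylates the initiation factor eIF2, translation of the transcription factor ATF4 increases, and ATF4 raises transcription of genes for amino acid synthesis, amino acid import and a group of cytosolic synthetases. RNA is the sole readout here, and neither tRNA charging nor eIF2 phosphorylation was measured.

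Total counts ran from 18633963 to 24520078 per library. Replicate libraries of a group differed by more than sampling noise, with a chi-square per degree of freedom over all genes of 1.43 to 5.20 in 11 groups and 12.3 in the KG-1a group given 8AA for 24 h. Over the 36 synthetase genes it was 1.17 to 3.37 in those 11 groups and 6.67 in that group, so counts that use these libraries are given below also without either of them. MV4-11 expressed the myeloid genes SPI1, CD33, FLT3 and LYZ and had CD34 at or near 0. KG-1a expressed CD34 and PTPRC, had MEIS1 at 0 and CD33, FLT3, MPO and LYZ below 1 RPKM, and carried CD3D at 236 to 359 RPKM. RPKM is a read count scaled for exon length and library total, computed from the deposited counts and exon lengths, so levels of different genes can be compared. A level relative to the other genes of the library cannot tell fewer cells with the RNA from less RNA per cell.

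The cytosolic synthetases were split by general knowledge, with earlier results of these data known, into 12 linked to ATF4 and 8 others. The 12 are AARS, CARS, EPRS, GARS, IARS, LARS, MARS, NARS, SARS, TARS, WARS and YARS. The 8 are DARS, FARSA, FARSB, HARS, KARS, QARS, RARS and VARS. Promoter windows of RefSeq, 250 bases before to 50 after a transcript start on GRCh38.p14, were found for 30 of the 36 genes, 39 windows in all. They were searched on both strands for TGATGNAA, the letters of the composite element that ATF4 binds together with a C/EBP protein. It was present in 7 of the 10 ATF4-linked genes with a window, in 0 of the 6 others and in 1 of the 14 mitochondrial genes (YARS2), against 4.46% of all 27305 genes and 3.62% of all 35116 windows. The E-box CACGTG, which MYC proteins bind, was present in 4 of the 30 genes (IARS, CARS2, EARS2 and MARS2) against 8.77% of all genes, and the palindrome TGACGTCA in 0 of 30 against 2.25%. Knowledge of such sites is part of why genes are called ATF4-linked, so the counts are not independent of the list. The 8 matches of TGATGNAA are printed because the results below are ordered by this split, with the match in capitals and 11 bases on either side.
AARS, chr16:70289675-70289704, minus strand: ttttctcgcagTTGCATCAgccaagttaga
CARS, chr11:3057407-3057436, minus strand: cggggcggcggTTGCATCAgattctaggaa
GARS, chr7:30594834-30594863, plus strand: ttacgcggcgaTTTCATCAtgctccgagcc
IARS, chr9:92293692-92293721, minus strand: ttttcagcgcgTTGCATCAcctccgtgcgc
MARS, chr12:57488053-57488082, plus strand: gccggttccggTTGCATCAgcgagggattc
NARS, chr18:57621804-57621833, minus strand: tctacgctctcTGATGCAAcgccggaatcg
TARS, chr5:33440956-33440985, plus strand: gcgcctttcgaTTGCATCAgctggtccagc
YARS2, chr12:32756076-32756105, minus strand: atccacactgcTGATGGAAaaattaagttt
The strand is that of the gene, on which each sequence is read 5′ to 3′. TTGCATCA and TGATGCAA are the same letters on the 2 strands, and 6 of the 7 ATF4-linked genes carry them, whereas GARS carries TTTCATCA. The first base of the match lies at −187 in AARS, −33 in GARS, −13 in IARS, −4 in MARS, −2 in CARS, 3 in TARS, 15 in NARS and −197 in YARS2, counted from the transcript start without a position 0. A match of letters is a description of the window and no measurement of binding.

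In untreated cells the cytosolic genes had the higher levels. In MV4-11 the means of the 4 untreated libraries lay between 23.1 RPKM (HARS) and 165 RPKM (FARSA) for the cytosolic genes, with a median of 78.1 RPKM, and between 5.73 (PARS2) and 66.9 RPKM (IARS2) for the mitochondrial genes, with a median of 13.9 RPKM. In KG-1a the range was 10.7 (HARS) to 127 RPKM (KARS) with a median of 63.8 RPKM in the cytosol, and 4.85 (PARS2) to 55.4 RPKM (IARS2) with a median of 13.4 RPKM in mitochondria. IARS2, which charges isoleucine, had the highest level of the mitochondrial genes, with 64.4 to 69.4 RPKM in MV4-11 and 52.4 to 58.04 RPKM in KG-1a. Among neighbours in the order of MV4-11, FARSA did not overlap KARS, the second highest, and KARS did not overlap EPRS, while the 8 genes from EPRS down to DARS formed a run in which neighbours overlapped.
Between the lines, most genes tested differed without any drug, so the synthetase counts are to be read against that background. At 24 h, 24 synthetase genes were called higher in MV4-11 and 7 lower by edgeR's quasi-likelihood test at an adjusted p below 0.05, beside 40.9% and 40.9% of all genes tested. At 8 h the counts were 21 and 7, beside 40.1% and 42.1%. The highest differences at 24 h, as log2 fold changes of MV4-11 over KG-1a, were 1.63 for LARS (leucine), 1.23 for HARS2 (mitochondrial histidine) and 1.21 for VARS (valine), and the lowest were −1.38 for LARS2 (mitochondrial leucine), −0.73 for VARS2 (mitochondrial valine) and −0.62 for NARS2 (mitochondrial asparagine). Leucine and valine thus had the cytosolic gene higher and the mitochondrial gene lower in MV4-11. The same was called at 24 h for alanine (AARS 0.17, AARS2 −0.21) and asparagine (NARS 0.14, NARS2 −0.62).

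**Figure D1:**
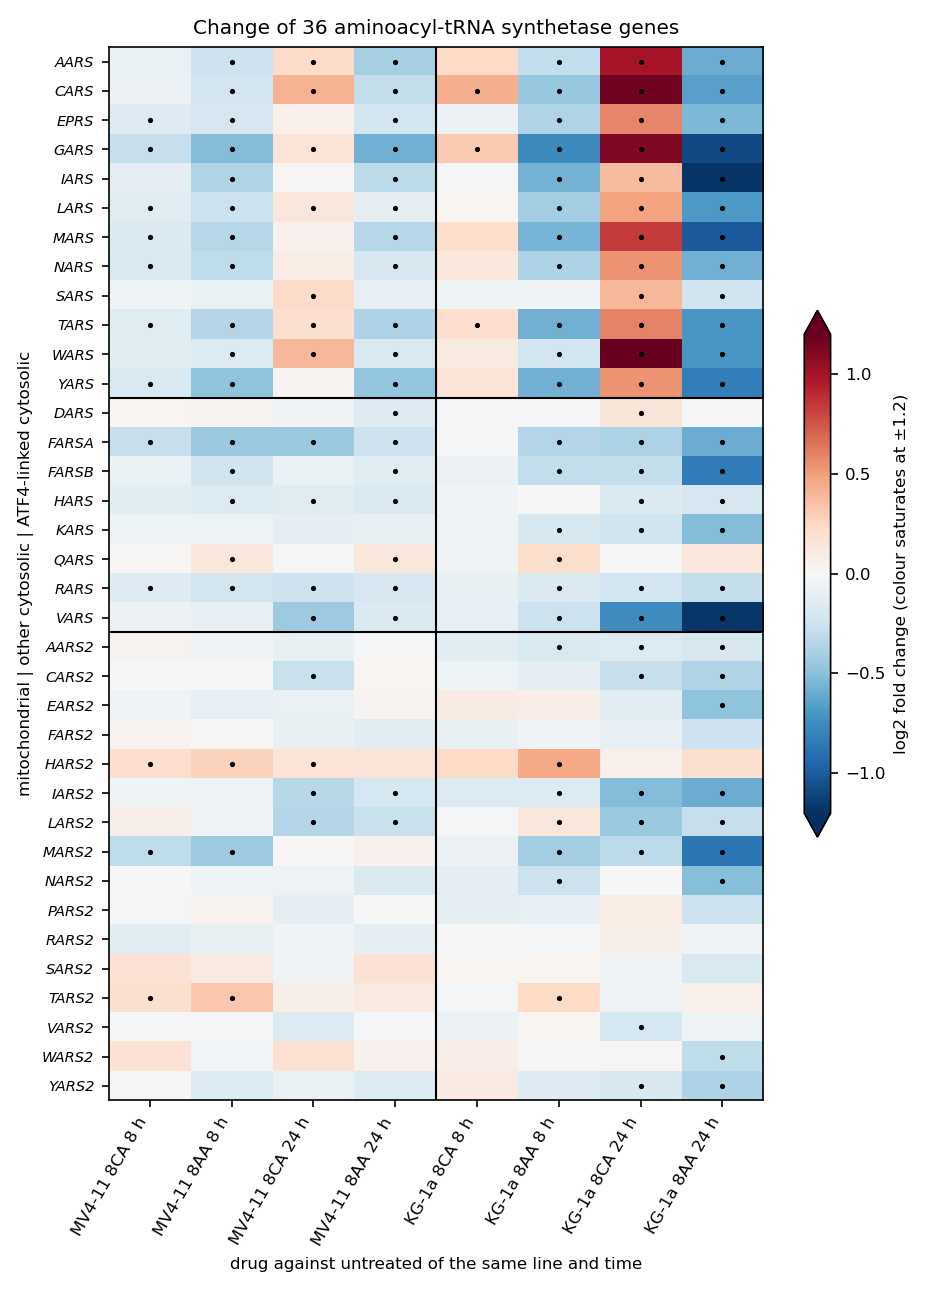
Log2 fold change of each of the 36 synthetase genes (rows, in 3 blocks) in each of the 8 comparisons of a drug with untreated cells (columns), with a dot where edgeR's adjusted p is below 0.05. The block of 12 ATF4-linked genes is red throughout in KG-1a with 8CA at 24 h and blue throughout in KG-1a with 8AA at 24 h, and the mitochondrial block is mostly pale.

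In KG-1a at 24 h the ATF4-linked synthetases were higher with 8CA and lower with 8AA than in untreated cells, and both drugs were compared with the same untreated libraries. With 8CA all 12 rose, by a median log2 fold change of 0.59 and a range of 0.38 to 2.17. With 8AA all 12 fell, by a median of −0.69 and a range of −1.18 to −0.23. The medians over all genes tested were 0.0065 and 0.013. Of all 36 synthetase genes, 13 rose and 13 fell with 8CA, where 23.5% and 24.0% of all genes were called higher and lower. With 8AA 0 rose and 27 fell, beside 25.3% and 26.5%.
The 3 genes highest with 8CA were WARS (2.17), CARS (1.16) and GARS (1.11), the enzymes for tryptophan, cysteine and glycine, and the 3 lowest were VARS (−0.76), IARS2 (−0.52) and LARS2 (−0.44), for valine and for mitochondrial isoleucine and leucine. With 8AA the 3 lowest were IARS (−1.18), VARS (−1.17) and GARS (−1.08), where IARS charges isoleucine in the cytosol. Over 13 other scalings, filters, tests, sets of libraries and left-out libraries the count with 8CA was 12 in each and that with 8AA was 11 or 12. With a log2 change of at least 0.5 also required, 9 rose with 8CA and 11 fell with 8AA. Without the KG-1a 8AA 24 h library A, 0 ATF4-linked genes were higher and 12 lower with 8AA, and without library B the counts were the same. Over all 36 genes, 30 were lower without library A, and 26 lower and 2 higher without library B.

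In MV4-11 at 24 h the called ATF4-linked genes were again higher with 8CA and lower with 8AA. With 8CA, 7 of the 12 ATF4-linked genes rose and 0 fell, with a median log2 fold change of 0.15, and with 8AA 11 fell and 0 rose, with a median of −0.30. Over the same 13 alternatives, 5 to 10 rose with 8CA and 9 to 11 fell with 8AA, and with a log2 change of at least 0.5 also required 0 rose and 1 fell. Of all 36 genes 8 rose and 7 fell with 8CA, beside 21.2% and 22.8% of all genes, and 1 rose and 19 fell with 8AA, beside 14.3% and 15.5%. The medians over all genes were 0.0022 and 0.0032.
CARS (0.41), WARS (0.40) and AARS (0.23, alanine) were highest with 8CA, and FARSA (−0.45, the catalytic subunit for phenylalanine), VARS (−0.44) and LARS2 (−0.35) lowest. With 8AA, GARS (−0.58), YARS (−0.46, tyrosine) and AARS (−0.40) were lowest, and QARS (0.14, glutamine) was the one called higher. The libraries of the 2 lines are separate. With 8AA at 24 h, 18 of the 36 genes were called lower in both lines and 0 in opposite directions, beside 11.1% and 1.99% of the 11485 genes tested in both lines. The MV4-11 calls of FARSB, HARS and LARS, all among those 18, were lost with library size only and upper-quartile scaling, among other alternatives. The count lower in both was 18 without KG-1a 8AA 24 h library A and 17 without library B. With 8CA 7 were called higher in both (AARS, CARS, GARS, LARS, SARS, TARS and WARS) and 7 lower in both (CARS2, FARSA, HARS, IARS2, LARS2, RARS and VARS), beside 13.2% and 15.7%.

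**Figure D2:**
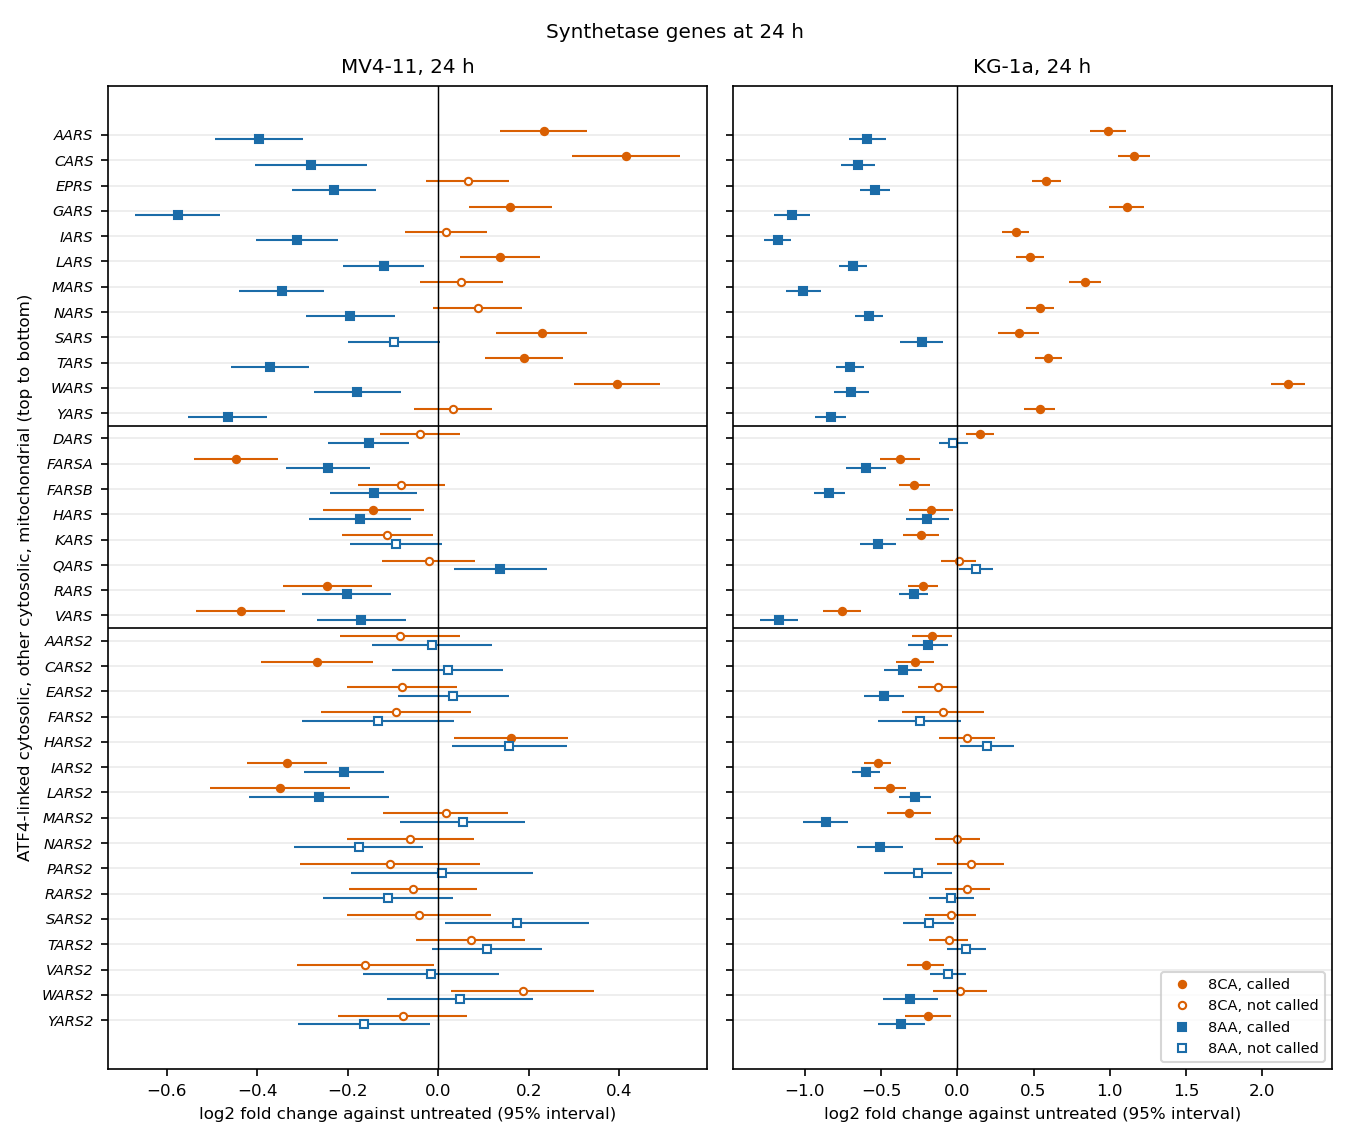
Log2 fold change against untreated with its 95% interval for each synthetase gene at 24 h in MV4-11 (left) and KG-1a (right, on a wider axis), with circles for 8CA, squares for 8AA and filled symbols for called genes. In KG-1a the circles and squares of the 12 ATF4-linked genes lie on opposite sides of 0, from 0.38 to 2.17 with 8CA and from −1.18 to −0.23 with 8AA.

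After 8 h with 8AA, most of the cytosolic synthetases were below their untreated level in both lines. Of the ATF4-linked genes, 11 of 12 fell in MV4-11 and 11 of 12 in KG-1a, with medians of −0.28 and −0.44 beside 0.0057 and 0.0072 over all genes tested, and SARS (serine) was the one not called in either line, at −0.084 and −0.040. Of all 36 genes 3 rose and 16 fell in MV4-11, beside 13.9% and 15.7% of all genes, and 4 rose and 20 fell in KG-1a, beside 16.7% and 18.0%. The lowest were GARS (−0.52), YARS (−0.48) and FARSA (−0.45) in MV4-11, and GARS (−0.77), YARS (−0.58) and TARS (−0.58, threonine) in KG-1a. TARS2 (0.32 and 0.24, mitochondrial threonine), HARS2 (0.28 and 0.47) and QARS (0.13 and 0.21) rose in both lines, and LARS2 (0.14) rose in KG-1a. The call of LARS2 was lost in 8 alternatives, among them each left-out library (adjusted p up to 0.207 by edgeR or DESeq2), and that of QARS in MV4-11 in 7 (up to 0.194). In all, 15 genes were called lower and 3 higher in both lines, beside 9.12% and 5.42% of the genes tested in both.
With 8CA at 8 h fewer genes were called. In MV4-11 2 genes rose and 10 fell, beside 5.03% and 6.20% of all genes. The largest falls were in MARS2 (−0.30, mitochondrial methionine), GARS (−0.28) and FARSA (−0.27). HARS2 (0.20) and TARS2 (0.19) were higher, and their calls were lost in 7 alternatives each, among them each left-out library. In KG-1a 3 rose and 0 fell, beside 0.810% and 0.244%, and the 3 were CARS (0.43), GARS (0.32) and TARS (0.20). GARS and TARS were thus called lower in MV4-11 and higher in KG-1a, where 0.0871% of the genes tested in both lines were called in opposite directions. The TARS call in KG-1a was lost with each left-out library, and that in MV4-11 in 5 alternatives. The GARS call in KG-1a was lost with 3 of the left-out libraries. The count in MV4-11 fell from 12 to between 4 and 7 when 1 library was left out, and that in KG-1a from 3 to 1 or 2.

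Since the untreated libraries are shared, the drugs were set against each other directly, at the same dose and time, in 4 comparisons with p-values adjusted over all genes within each. With 8AA against 8CA at 24 h, all 12 ATF4-linked genes were lower in KG-1a (median log2 difference −1.46, over all genes 0.0025) and all 12 in MV4-11 (median −0.45, over all genes 0.013), and these counts were the same over 12 other scalings, filters, tests, sets of libraries and left-out libraries. With a log2 difference of at least 0.5 also required, 12 were lower in KG-1a and 5 in MV4-11. Of all 36 genes 22 were lower and 1 higher in KG-1a, beside 21.7% and 20.4% of all genes, and 12 lower and 6 higher in MV4-11, beside 9.69% and 12.1%. Without KG-1a 8AA 24 h library A the KG-1a count was 23 lower and 0 higher, and without library B 21 lower and 4 higher.
The lowest at 24 h were WARS (−2.86, 95% interval −2.98 to −2.75), GARS (−2.20) and MARS (−1.85, methionine) in KG-1a, and GARS (−0.74, 95% interval −0.83 to −0.64), CARS (−0.70) and AARS (−0.63) in MV4-11. The 1 gene higher with 8AA in KG-1a was LARS2 (0.17). In MV4-11 the genes higher with 8AA than with 8CA were CARS2 (0.29, mitochondrial cysteine), VARS (0.27), SARS2 (0.22, mitochondrial serine), FARSA, QARS and IARS2, none of them ATF4-linked. The calls of SARS2 and IARS2 were lost with the DESeq2 Wald test, among other alternatives. Those of FARSA and QARS were lost only where a library was left out.
At 8 h, 11 of 12 ATF4-linked genes were lower with 8AA in KG-1a and 6 of 12 in MV4-11. Over all 36 genes the counts were 16 lower and 4 higher in KG-1a, beside 15.8% and 14.8%, and 7 lower and 0 higher in MV4-11, beside 4.16% and 3.28%. The lowest were GARS (−1.08), CARS (−0.89) and TARS (−0.78) in KG-1a, and YARS (−0.30, 95% interval −0.39 to −0.21), GARS (−0.25) and IARS (−0.25) in MV4-11, and TARS2 (0.26), QARS (0.25) and HARS2 (0.23) were the highest in KG-1a. The KG-1a calls of HARS2 and of LARS2 (0.15), also higher, were lost with the DESeq2 Wald test, among other alternatives. The MV4-11 count at 8 h was 3 to 5 when 1 library was left out. Among the genes not called, the 95% interval of the difference was −0.17 to 0.018 for IARS2 in KG-1a at 24 h and −0.079 to 0.099 for DARS in MV4-11 at 8 h.

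In the same fits, the change at 24 h was set against that at 8 h. For 8CA it was higher at 24 h for 12 of the 12 ATF4-linked genes in KG-1a and 11 in MV4-11, and lower for 0. Over all 36 genes 12 were higher and 6 lower in KG-1a, beside 11.3% and 12.8% of all genes, and 12 higher and 4 lower in MV4-11, beside 6.70% and 10.2%. The largest differences were WARS (2.06), GARS (0.80) and AARS (0.75) upward and VARS (−0.66), LARS2 (−0.43) and IARS2 (−0.36) downward in KG-1a, and WARS (0.52), CARS (0.48) and GARS (0.44) upward and LARS2 (−0.42), VARS (−0.36) and IARS2 (−0.28) downward in MV4-11.
For 8AA in MV4-11, 1 gene was called (MARS2, 0.49), beside 2.93% higher and 2.49% lower over all genes. For 8AA in KG-1a, 0 were higher and 15 lower at 24 h, beside 7.80% and 10.9%, led by VARS (−0.91), IARS (−0.61) and EARS2 (−0.56, mitochondrial glutamate). This last count was 28 without KG-1a 8AA 24 h library A and 15 without library B.

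For the difference between the lines, all 24 libraries entered 1 fit. With 8CA at 24 h, the change of 11 of 12 ATF4-linked genes was lower in MV4-11 than in KG-1a, all but SARS, and over all 36 genes 11 were lower and 4 higher in MV4-11, beside 5.48% and 5.78% of all genes. With 8AA at 24 h, the change of 22 genes was higher in MV4-11 and that of 0 lower, beside 13.9% and 8.54%. Those counts were 23 and 0 without KG-1a 8AA 24 h library A, and 18 and 1 without library B. At 24 h the differences were led by WARS (−1.75), GARS (−0.93) and MARS (−0.76) with 8CA, where MARS2 (0.36), VARS (0.34) and FARSB (0.23) went the other way, and by VARS (1.02), MARS2 (0.94) and IARS (0.89) with 8AA.
At 8 h, 7 genes were lower in MV4-11 with 8CA and 0 higher, beside 0.790% and 0.462%, led by GARS (−0.58), CARS (−0.49) and MARS (−0.37). With 8AA, 7 were higher and 0 lower, beside 7.58% and 3.69%, led by GARS (0.28), CARS (0.27) and TARS (0.26). The last count was 2 without MV4-11 untreated 8 h library A and 1 with no filter on low counts. In each of these 8 h comparisons the genes called were ATF4-linked ones, 7 of 7.

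The glycine enzyme gene GARS had the largest mean absolute change of the cytosolic genes over the 8 drug comparisons. In KG-1a its levels in libraries A and B were 88.9 and 84.6 RPKM untreated, 108 and 108 under 8CA and 51.1 and 50.1 under 8AA at 8 h, and 87.2 and 87.4 RPKM untreated, 189.7 and 187 under 8CA and 44.01 and 38.1 under 8AA at 24 h. In MV4-11 they were 103 and 104 RPKM untreated, 84.3 and 88.4 under 8CA and 71.7 and 75.5 under 8AA at 8 h, and 106 and 104 RPKM untreated, 117 and 121 under 8CA and 68.96 and 73.9 under 8AA at 24 h. No drug group overlapped its untreated group in either line. At 24 h in KG-1a GARS was 2.16-fold untreated with 8CA (log2 1.11, SE 0.054, edgeR adjusted p = 1.17e-10) and 0.472 times untreated with 8AA (log2 −1.08, SE 0.056, edgeR adjusted p = 3.02e-10). GARS, and likewise AARS, CARS, FARSB, IARS2, KARS, NARS, RARS, TARS2, WARS and WARS2, has annotated pseudogenes, so the placing of some of its reads is uncertain.

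WARS, the tryptophan enzyme, is also known as a gene induced by interferon gamma. In KG-1a its levels were 40.3 and 40.9 RPKM untreated, 42.8 and 44.5 under 8CA and 35.3 and 33.4 under 8AA at 8 h, and 39.1 and 39.1 RPKM untreated, 177 and 174 under 8CA and 25.5 and 22.7 under 8AA at 24 h. In MV4-11 they were 76.6 and 76.8 RPKM untreated, 69.00 and 72.8 under 8CA and 70.1 and 69.5 under 8AA at 8 h, and 72.2 and 76.1 RPKM untreated, 97.2 and 101 under 8CA and 64.4 and 68.5 under 8AA at 24 h. The 2 libraries of KG-1a with 8CA at 24 h stood far above the other 10 of the line. WARS was 4.49-fold untreated there (log2 2.17, SE 0.053, edgeR adjusted p = 1.56e-14) and 1.32-fold in MV4-11 (log2 0.40, SE 0.045, edgeR adjusted p = 9.1e-07). The 8 h values with 8CA did not pass the threshold in either line (0.11 and −0.12). Of 18 other genes induced by interferon, 15 were tested in KG-1a and 9 in MV4-11. At 24 h in KG-1a 4 rose and 2 fell with 8CA, beside 23.5% and 24.0% of all genes, and 8 rose and 1 fell with 8AA, with which WARS fell, beside 25.3% and 26.5%. The 8AA counts were 7 and 3 without library A of the 8AA group and 8 and 1 without library B. In MV4-11 at 24 h 1 of the 9 rose with 8CA and 2 with 8AA, beside 21.2% and 14.3% of all genes called higher. In KG-1a, OAS1, an RNA sensor, fell with both drugs (−1.19 and −1.04), the interferon-induced IFIT2 (0.61 and 0.75) and the factor IRF7 (0.66 and 0.87) rose with both, and IFIT1 fell with 8CA (−0.33) and rose with 8AA (0.53). OAS1 had few reads at 24 h, 58 and 45 untreated, 21 and 28 under 8CA and 32 and 26 under 8AA. Untreated KG-1a at 8 h had 25 and 39, so both OAS1 falls rest on the shared 24 h untreated libraries. The part of interferon signalling in the WARS values was not tested.

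CARS, for cysteine, was at 24.3 and 23.5 RPKM untreated, 31.8 and 32.7 under 8CA and 16.8 and 17.7 under 8AA in KG-1a at 8 h, and at 26.9 and 26.4 RPKM untreated, 60.3 and 58.2 under 8CA and 17.3 and 16.5 under 8AA at 24 h. In MV4-11 the levels were 24.5 and 25.6 RPKM untreated, 23.1 and 25.1 under 8CA and 20.6 and 22.9 under 8AA at 8 h, and 26.1 and 27.2 RPKM untreated, 34.8 and 37.3 under 8CA and 22.02 and 22.5 under 8AA at 24 h. The groups did not overlap in KG-1a at either time, and in MV4-11 the 8 h untreated and 8CA groups overlapped. At 24 h with 8CA, CARS was 2.23-fold untreated in KG-1a (SE 0.050 on the log2 scale, edgeR adjusted p = 2.1e-11) and 1.33-fold in MV4-11 (SE 0.058, edgeR adjusted p = 8.79e-06).

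YARS, for tyrosine, showed the largest fall of 8AA against 8CA in MV4-11 at 8 h, where its levels were 50.5 and 51.2 RPKM untreated, 44.9 and 45.2 under 8CA and 35.9 and 38.3 under 8AA. At 24 h in MV4-11 they were 51.05 and 50.4 RPKM untreated, 53.1 and 52.2 under 8CA and 36.7 and 37.8 under 8AA. In KG-1a they were 54.5 and 53.8 RPKM untreated, 60.6 and 60.6 under 8CA and 36.5 and 35.5 under 8AA at 8 h, and 54.4 and 55.96 RPKM untreated, 81.7 and 78.4 under 8CA and 32.4 and 29.6 under 8AA at 24 h. In every one of these 4 settings both 8AA libraries were below both untreated and both 8CA libraries. YARS overlaps S100PBP on the other strand, and no source used here says whether reads were counted by strand.

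MARS charges methionine, the amino acid whose metabolism the study addresses. In KG-1a its levels were 26.4 and 26.5 RPKM untreated, 30.6 and 30.3 under 8CA and 18.6 and 17.2 under 8AA at 8 h, and 28.4 and 28.1 RPKM untreated, 51.7 and 49.00 under 8CA and 14.6 and 13.4 under 8AA at 24 h. In MV4-11 they were 43.9 and 46.6 RPKM untreated, 39.6 and 41.3 under 8CA and 35.6 and 37.4 under 8AA at 8 h, and 45.9 and 44.7 RPKM untreated, 47.1 and 48.2 under 8CA and 35.6 and 36.6 under 8AA at 24 h. For KG-1a at 24 h MARS was 1.79-fold untreated with 8CA (SE 0.051 on the log2 scale, edgeR adjusted p = 2.02e-09) and 0.496 times untreated with 8AA (SE 0.054, edgeR adjusted p = 3.98e-10). In MV4-11 at 24 h the 8CA value (0.051, 95% interval −0.041 to 0.14) did not pass the threshold. MARS overlaps DDIT3 and ARHGAP9, which lie on the other strand. DDIT3, the stress transcription factor CHOP, was at 1.65 and 2.04 RPKM untreated, 10.1 and 9.43 under 8CA and 3.95 and 2.82 under 8AA in KG-1a at 24 h, and its part in the MARS counts was not tested.

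**Figure D3:**
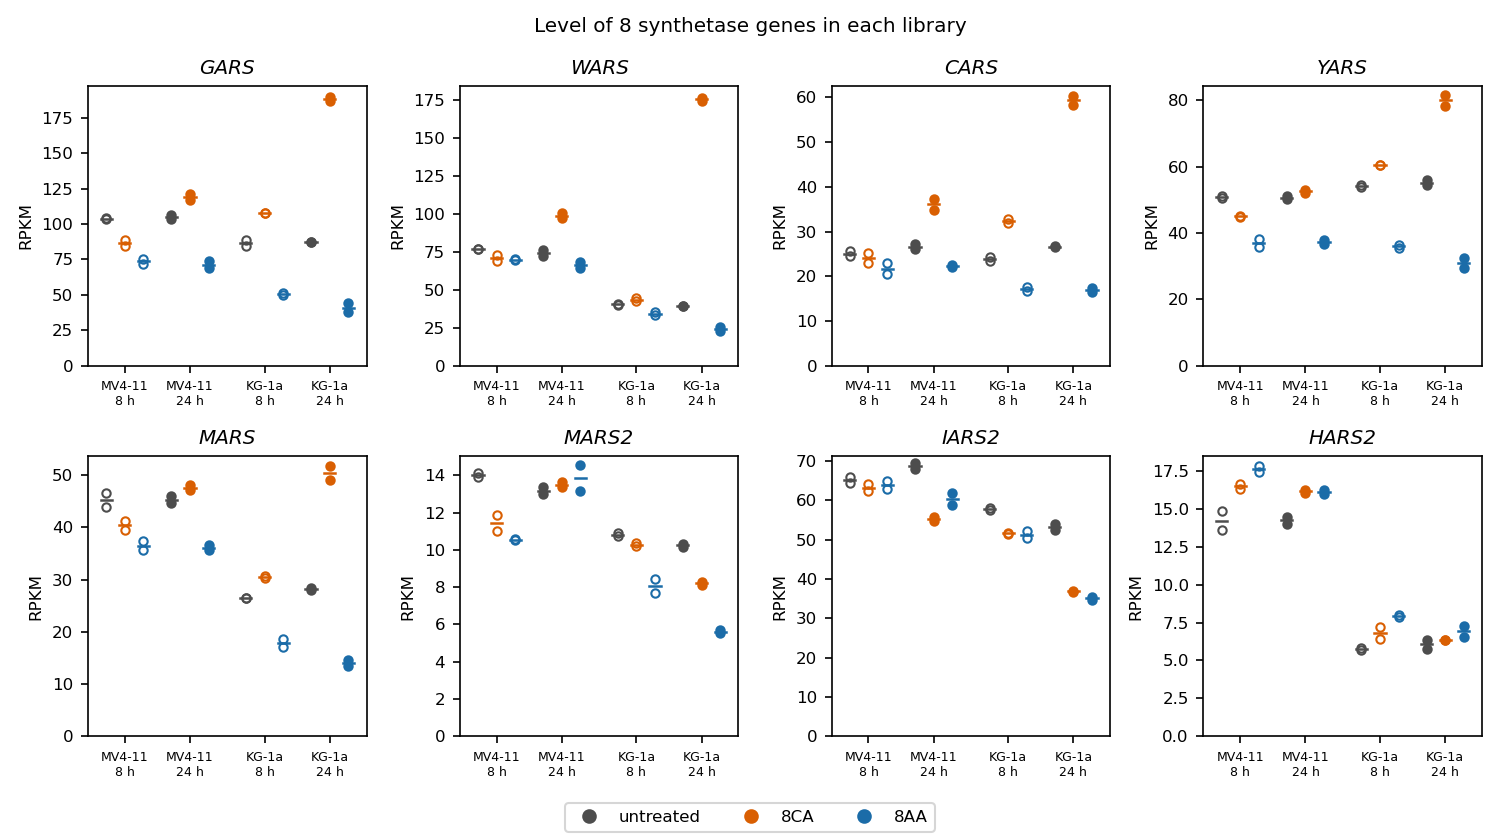
Level (RPKM, linear axis from 0) of 8 synthetase genes in each of the 24 libraries, as points by line and time (open at 8 h, filled at 24 h), with short lines for the mean of the 2 libraries of a group. GARS, WARS, CARS, YARS and MARS are highest in KG-1a with 8CA at 24 h, whereas MARS2 and IARS2 are lower there than in untreated KG-1a.

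Of the other 8 cytosolic genes, 1 (DARS) was called higher with 8CA, in KG-1a at 24 h, and that call was lost with each left-out library. At 24 h in KG-1a 1 rose and 6 fell with 8CA (median −0.23), beside 23.5% and 24.0% of all genes, and 0 rose and 6 fell with 8AA (median −0.40), beside 25.3% and 26.5%. Without library A of the 8AA group the 8AA counts were 0 and 6, and without library B 1 and 5. In MV4-11 at 24 h 0 rose and 4 fell with 8CA (median −0.13), beside 21.2% and 22.8%, and 1 rose and 6 fell with 8AA (median −0.16), beside 14.3% and 15.5%. VARS, FARSA, RARS (arginine) and HARS (histidine) fell in all 4 of these comparisons. The HARS calls were lost in 6 to 9 alternatives each, among them library size only, upper-quartile scaling and DESeq2 in all 4, with adjusted p by edgeR or DESeq2 of up to 0.321. VARS was at 29.8 and 32.1 RPKM untreated, 18.2 and 18.4 under 8CA and 14.1 and 13.3 under 8AA in KG-1a, and at 72.1 and 71.6 RPKM untreated, 52.7 and 55.01 under 8CA and 64.3 and 65.2 under 8AA in MV4-11. In KG-1a the drop was larger with 8AA (−0.41 for 8AA against 8CA), and in MV4-11 it was larger with 8CA (0.27). FARSA and FARSB, the 2 subunits of 1 phenylalanine enzyme, changed in KG-1a at 24 h by −0.38 and −0.28 with 8CA and by −0.60 and −0.84 with 8AA, and by −0.45 and −0.081 with 8CA in MV4-11, where FARSB did not pass the threshold. KARS (lysine) fell in KG-1a at 24 h with both drugs (−0.24 and −0.52) and was not called in MV4-11, where its values lay between −0.11 and −0.062.
DARS (aspartate) was called in 2 of 8 drug comparisons (both at 24 h, −0.15 for 8AA in MV4-11 and 0.15 for 8CA in KG-1a). Its MV4-11 call was lost in 2 alternatives, library size only among them. QARS was called higher in 3 of the 4 comparisons with 8AA and in none with 8CA, and its MV4-11 calls were lost in 7 alternatives at 8 h and in 4 at 24 h (adjusted p up to 0.362 by edgeR or DESeq2). HARS overlaps HARS2 on the other strand, and its largest change was −0.20, in KG-1a with 8AA at 24 h.

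Over the 8 drug comparisons 0 to 9 of the 16 mitochondrial genes were called, and those called in KG-1a at 24 h were lower. In KG-1a at 24 h 0 of 16 rose and 7 fell with 8CA (median −0.11), beside 23.5% and 24.0% of all genes, and 0 rose and 9 fell with 8AA (median −0.27), beside 25.3% and 26.5%. The 8CA calls of AARS2 and YARS2 were lost with library size only, upper-quartile scaling and the DESeq2 Wald test. The 8AA counts were 0 higher and 12 lower without library A of the 8AA group, and 1 higher and 9 lower without library B. In MV4-11 at 24 h 1 rose and 3 fell with 8CA, beside 21.2% and 22.8%, and 0 rose and 2 fell with 8AA, beside 14.3% and 15.5%, so that these shares of 16 genes were no higher than the background. At 8 h 2 rose and 1 fell with 8CA in MV4-11 (background 5.03% and 6.20%) and 0 and 0 in KG-1a (0.810% and 0.244%). With 8AA 2 rose and 1 fell in MV4-11 (13.9% and 15.7%) and 3 rose and 4 fell in KG-1a (16.7% and 18.0%). Of these KG-1a calls, the rise of LARS2 was lost with the DESeq2 Wald test and the fall of AARS2 with library size only, among other alternatives. FARS2, PARS2, RARS2 and SARS2, for phenylalanine, proline, arginine and serine, were called in 0 of the 8 comparisons.

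MARS2, the mitochondrial methionine enzyme, had the largest mean absolute change in this group. In KG-1a it was at 10.9 and 10.7 RPKM untreated, 10.2 and 10.3 under 8CA and 8.45 and 7.67 under 8AA at 8 h, and at 10.3 and 10.2 RPKM untreated, 8.29 and 8.14 under 8CA and 5.68 and 5.56 under 8AA at 24 h. In MV4-11 it was at 14.1 and 13.9 RPKM untreated, 11.02 and 11.9 under 8CA and 10.6 and 10.5 under 8AA at 8 h, and 12.98 and 13.3 RPKM untreated, 13.3 and 13.7 under 8CA and 14.6 and 13.1 under 8AA at 24 h. MARS2 thus fell in KG-1a at 24 h with 8CA (−0.32, SE 0.068, edgeR adjusted p = 0.00111), where MARS rose, and with 8AA (−0.87, SE 0.071, edgeR adjusted p = 3.99e-08), where MARS fell too. In MV4-11 it was lower at 8 h with both drugs (−0.30 and −0.44) and near the untreated level at 24 h (0.016, 95% interval −0.12 to 0.15, and 0.054, −0.085 to 0.19).

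IARS2, for mitochondrial isoleucine, fell at 24 h in all 4 comparisons. In KG-1a it was at 57.4 and 58.04 RPKM untreated, 51.8 and 51.4 under 8CA and 52.2 and 50.4 under 8AA at 8 h, and at 53.9 and 52.4 RPKM untreated, 36.8 and 37.02 under 8CA and 35.4 and 34.7 under 8AA at 24 h. In MV4-11 it was at 64.4 and 65.9 RPKM untreated, 62.2 and 64.1 under 8CA and 62.96 and 64.9 under 8AA at 8 h, and 68.00 and 69.4 RPKM untreated, 54.7 and 55.8 under 8CA and 58.8 and 61.7 under 8AA at 24 h. At 24 h both drug groups lay below the untreated group in both lines, with log2 fold changes of −0.52 and −0.60 in KG-1a and −0.33 and −0.21 in MV4-11 for 8CA and 8AA, and edgeR adjusted p from 9.33e-09 to 0.000887. LARS2 also fell in these 4 comparisons (−0.44, −0.28, −0.35 and −0.26).

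HARS2, for mitochondrial histidine, is the mitochondrial gene that rose most often. In KG-1a it was at 5.71 and 5.84 RPKM untreated, 7.18 and 6.40 under 8CA and 7.97 and 7.87 under 8AA at 8 h, and at 6.37 and 5.78 RPKM untreated, 6.32 and 6.37 under 8CA and 7.30 and 6.57 under 8AA at 24 h. In MV4-11 it was at 13.6 and 14.8 RPKM untreated, 16.6 and 16.3 under 8CA and 17.8 and 17.4 under 8AA at 8 h, and 14.02 and 14.5 RPKM untreated, 16.1 and 16.3 under 8CA and 15.97 and 16.2 under 8AA at 24 h. It was called in 4 of 8 comparisons, with the largest change in KG-1a with 8AA at 8 h (0.47, SE 0.084, edgeR adjusted p = 0.000405). Its call in MV4-11 with 8CA at 8 h was lost in 7 alternatives, with an edgeR or DESeq2 adjusted p of up to 0.307, and that with 8CA at 24 h in 5, with one of up to 0.153. Reads in the overlap with HARS cannot be told apart if strand was not used in counting.

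**Figure D4:**
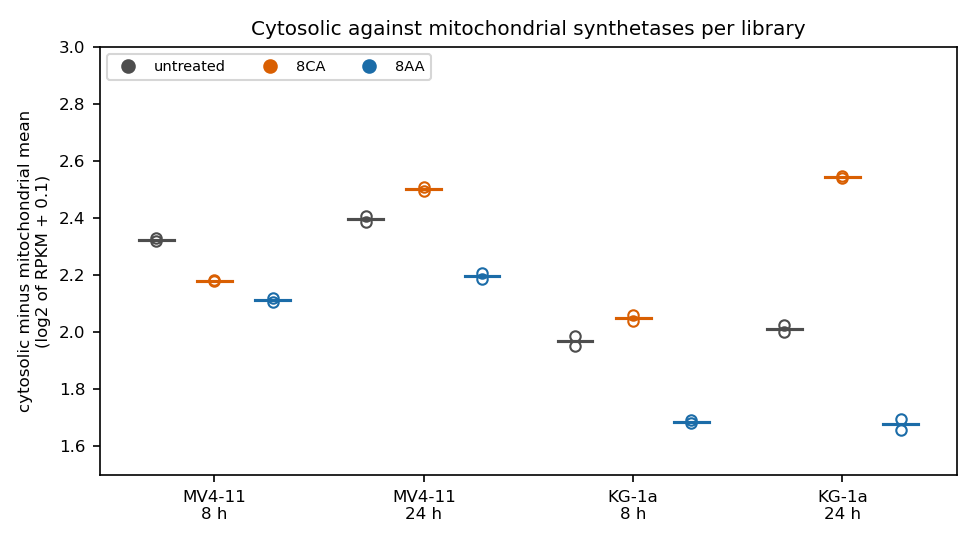
Mean log2(RPKM + 0.1) of the 20 cytosolic genes minus that of the 16 mitochondrial genes in each library (points) and group mean (lines). In KG-1a at 24 h the 8CA libraries lie at 2.55 and 2.54, above the untreated 2.001 and 2.03, and the 8AA libraries at 1.70 and 1.66, below them. The axis does not start at 0.

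The gap between the 2 compartments was summarised per library as the mean log2(RPKM + 0.1) of the cytosolic genes minus that of the mitochondrial genes, as a description with no test. In KG-1a it was 1.95 and 1.99 untreated, 2.04 and 2.06 under 8CA and 1.68 and 1.69 under 8AA at 8 h, and 2.001 and 2.03 untreated, 2.55 and 2.54 under 8CA and 1.70 and 1.66 under 8AA at 24 h. In MV4-11 it was 2.32 and 2.33 untreated, 2.18 and 2.18 under 8CA and 2.11 and 2.12 under 8AA at 8 h, and 2.39 and 2.41 untreated, 2.51 and 2.49 under 8CA and 2.19 and 2.21 under 8AA at 24 h. With 8AA the gap was smaller than untreated in both lines at both times, and with 8CA it was smaller in MV4-11 at 8 h and larger in the other 3 settings. No drug group overlapped its untreated group. Seen as shares of all reads, the 36 genes took 0.529 and 0.529% in untreated KG-1a at 24 h, 0.733 and 0.719% under 8CA and 0.388 and 0.367% under 8AA.

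The enzymes can also be grouped by the fold of their catalytic domain, class I or class II, and by membership of a complex. Of the 18 class I enzymes 6 rose and 8 fell with 8CA in KG-1a at 24 h, and of the 17 class II enzymes 6 rose and 5 fell, with EPRS, which holds an enzyme of each class, in neither group. Of all genes 23.5% were called higher and 24.0% lower. With 8AA the counts were 0 and 15 for class I and 0 and 11 for class II, beside 25.3% and 26.5% of all genes. Without library A of the 8AA group they were 0 and 15, and 0 and 14, and without library B 1 and 15, and 1 and 10. Of the 8 genes whose enzymes sit in the multisynthetase complex, 5 rose (EPRS, IARS, LARS, MARS and DARS) and 2 fell (KARS and RARS) with 8CA, and 0 rose and 6 fell with 8AA, with 0 and 6 without library A and 1 and 6 without library B.

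Other genes of the amino acid response were counted as a separate list, which was chosen with earlier results of these data known. The list holds 24 genes, ATF4 and its known targets in amino acid synthesis and import among them, and includes XPOT, which exports tRNA from the nucleus. In KG-1a at 24 h 21 of 22 tested rose and 0 fell with 8CA (median 1.66), and 1 rose (DDIT3) and 20 fell with 8AA (median −0.68), or 1 and 19 without either library of the 8AA group. Of all genes, 23.5% rose and 24.0% fell under 8CA, and 25.3% rose and 26.5% fell under 8AA. In MV4-11 at 24 h 16 of 23 rose and 0 fell with 8CA (median 0.59), and 0 rose and 17 fell with 8AA (median −0.47), beside 21.2% and 22.8%, and 14.3% and 15.5%. At 8 h with 8CA the counts higher and lower were 14 and 0 in KG-1a, beside 0.810% and 0.244% of all genes. In MV4-11 they were 0 and 4, beside 5.03% and 6.20%. With 8AA they were 1 and 15 in KG-1a, beside 16.7% and 18.0%, and 0 and 13 in MV4-11, beside 13.9% and 15.7%. KG-1a with 8CA at 8 h thus had 14 genes of this list and 3 of the 12 synthetases called higher.
ATF4 RNA itself was at 164 and 167 RPKM untreated, 362 and 354 under 8CA and 109 and 92.1 under 8AA in KG-1a at 24 h, and at 156 and 158 RPKM untreated, 231 and 248 under 8CA and 122 and 132 under 8AA in MV4-11. The 8CA libraries were above and the 8AA libraries below the untreated ones in both lines, by 1.12 and −0.72 in KG-1a and 0.59 and −0.33 in MV4-11. The 4 genes of the list with the largest mean absolute change were CHAC1, which degrades glutathione (in KG-1a at 24 h 3.92 with 8CA and −2.79 with 8AA), the secreted glycoprotein STC2 (4.19 and −1.40), the cystine importer SLC7A11 (2.38 and −0.85) and the transcription factor ATF3 (2.18 and −0.87). STC2 rests on low counts there, 10 and 20 reads untreated and 5 and 8 under 8AA. CHAC1 had 72 and 67 reads untreated and 11 and 12 under 8AA.

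**Figure D5:**
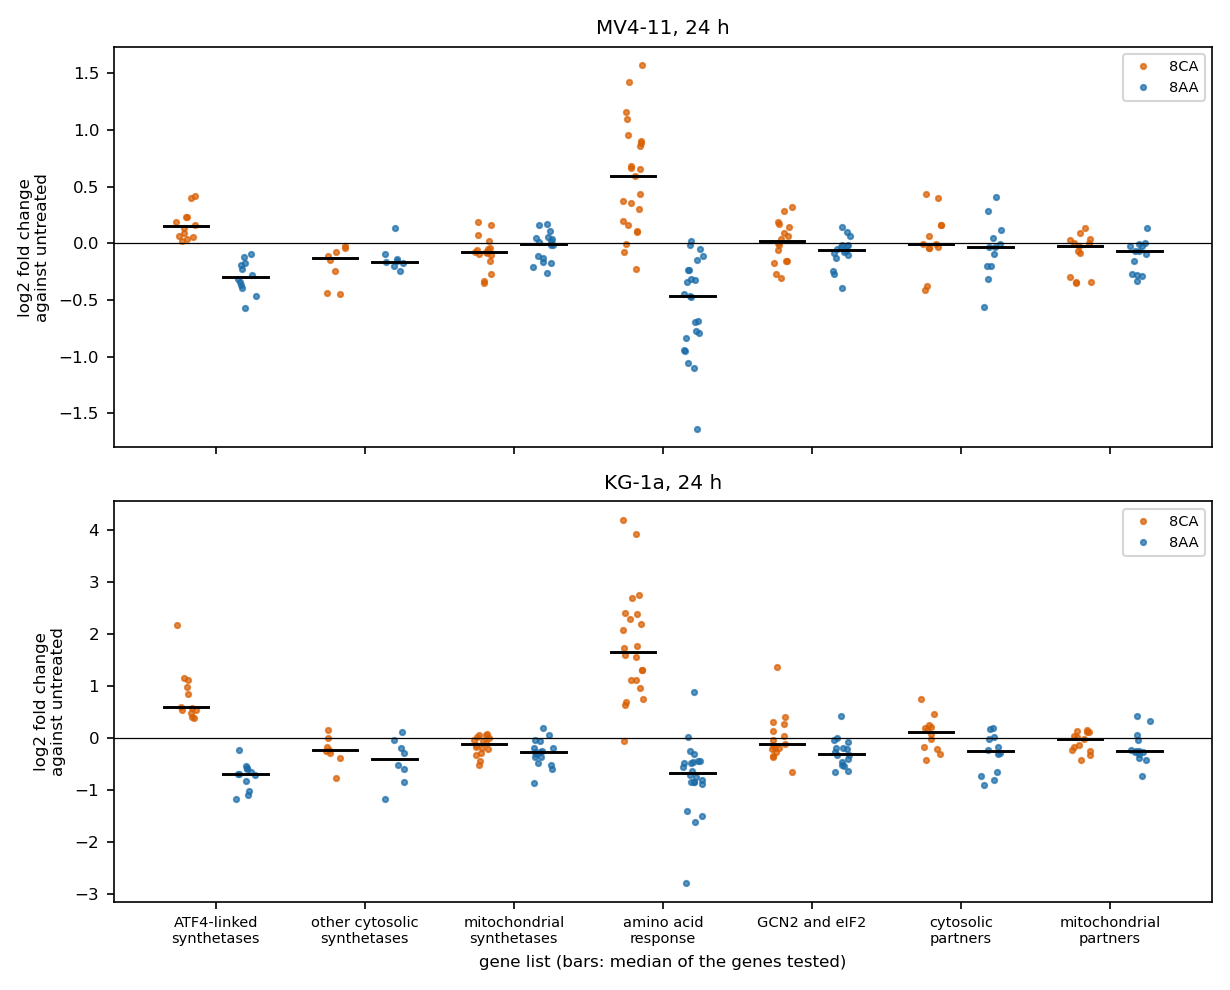
Log2 fold change against untreated at 24 h of every tested gene of 7 lists in MV4-11 (top) and KG-1a (bottom, on a wider axis), with 8CA in orange, 8AA in blue and a bar at the median. The ATF4-linked synthetases and the amino acid response genes have medians above 0 with 8CA (0.59 and 1.66 in KG-1a) and below 0 with 8AA (−0.69 and −0.68). XPOT is in both the amino acid response and the cytosolic partner list.

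The kinases, factors and phosphatases of the GCN2 and eIF2 pathway were called in both directions with 8CA. Of 16 tested, 4 rose and 8 fell with 8CA in KG-1a at 24 h, and 1 rose and 12 fell with 8AA, beside 23.5% and 24.0%, and 25.3% and 26.5% of all genes. The 8AA counts were the same without either library of the 8AA group. In MV4-11 the counts were 4 and 5 with 8CA and 0 and 3 with 8AA, beside 21.2% and 22.8%, and 14.3% and 15.5%. PPP1R15A, the phosphatase subunit GADD34 that reverses eIF2 phosphorylation, rose with both drugs in KG-1a (1.37 and 0.43), and EIF2S1, the phosphorylated eIF2 subunit, fell with both (−0.35 and −0.53). EIF2S2, another eIF2 subunit, rose with 8CA (0.41) and fell with 8AA (−0.64), and EIF2B3, of the exchange factor eIF2B, fell with both (−0.66 and −0.64).
Among partners of the cytosolic enzymes, 5 of 12 rose and 3 fell with 8CA in KG-1a at 24 h and 1 rose and 7 fell with 8AA, and in MV4-11 the counts were 4 and 1, and 2 and 3, all beside the shares of all genes just given. In KG-1a the 8AA counts were 1 and 7 without library A of the 8AA group and 2 and 8 without library B. XPOT changed by 0.75 with 8CA and −0.81 with 8AA in KG-1a, and EEF1E1, a scaffold protein of the multisynthetase complex, by −0.90 with 8AA, while its value with 8CA (−0.18) did not pass. SEPSECS, which makes selenocysteinyl-tRNA, rose with 8CA (0.47), and the proofreading enzyme DTD2 fell with both drugs (−0.31 and −0.65).
Among partners in mitochondrial translation, 0 of 13 tested rose and 5 fell with 8CA in KG-1a at 24 h and 2 rose and 9 fell with 8AA, and in MV4-11 the counts were 1 and 3, and 0 and 3, beside the same shares. In KG-1a the 8AA counts were 2 and 9 without library A of the 8AA group and 1 and 7 without library B. The elongation factor GFM1 (−0.42 and −0.72), the elongation factor TSFM (−0.32 and −0.42) and the formyltransferase MTFMT (−0.24 and −0.38), which modifies the initiator methionyl-tRNA that MARS2 charges, fell with both drugs in KG-1a. The initiation factor MTIF3 rose with 8AA (0.43).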

How the data were processed

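RNA was extracted with the QIAGEN RNeasy Micro Kit from MV4-11 and KG-1a cells and sequenced. The authors deposited 1 table of read counts per gene, not normalized, with positions and exon lengths. The submitters' processing notes name Trimmomatic, STAR 2.6.0, HTSeq 0.11.1, edgeR, hg19 and hg38 without roles. The table's gene starts are not those of GRCh38.p14 (3.65% of 21956 symbol-matched starts lie within 1000 bases), so no positions from it are given, and whether strand was used in counting is not given in the sources used here.

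Counts were tested with edgeR 4.0.16 in R 4.3.3 (filterByExpr with a minimum count of 10, TMM scaling, quasi-likelihood test, Benjamini-Hochberg adjustment over all genes tested, threshold 0.05). The 12 libraries of a line entered 1 fit (12800 genes in MV4-11, 12711 in KG-1a), and contrasts between lines used all 24 libraries (14055 genes). A gene is called where its adjusted p is below the threshold, and fold changes are relative to the other genes of the library. RPKM was computed from the deposited counts, exon lengths and TMM-scaled totals, and a pseudocount of 0.1 was added for log means. The scripts were tested on simulated data. Total counts of 18633963 to 24520078 per library set the precision. Alternatives were DESeq2 1.42.0, other scalings and filters, other sets of libraries, a replicate block, a fold threshold and leaving out each library.

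The 36 genes and all lists were chosen with earlier results of these data known. Levels in every library are given for the 3 cytosolic and 3 mitochondrial genes with the largest mean absolute change over the 8 drug comparisons, for WARS, MARS and MARS2, and for the gene with the largest difference in each comparison of 8AA with 8CA. For VARS, ATF4 and DDIT3 they were added after their values were seen. In each comparison up to 3 called genes with the largest change in each direction are named, and of each other list the 4 with the largest mean absolute change. Promoter sequences are from RefSeq.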

Additional observations from a re-analysis of the deposited data

Results flagged for a closer look

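Each result here is a change that differed between times or between lines by a test of the difference itself (edgeR quasi-likelihood contrast, Benjamini-Hochberg adjusted p below 0.05). Between 24 h and 8 h, the change with 8CA differed for 16 of the 36 synthetase genes in MV4-11, where WARS had the largest difference (0.52 on the log2 scale), and for 18 in KG-1a, where it was again WARS (2.06). Of all genes, 6.70% were called higher and 10.2% lower in MV4-11, against 11.3% higher and 12.8% lower in KG-1a. With 8AA it differed for 1 gene in MV4-11 (MARS2, 0.49) and for 15 in KG-1a, led by VARS (−0.91), beside 2.93% and 2.49%, and 7.80% and 10.9%. Between MV4-11 and KG-1a, the change at 8 h differed for 7 genes with 8CA, led by GARS (−0.58), and for 7 with 8AA, led by GARS (0.28), beside 0.462% and 0.790%, and 7.58% and 3.69%. The 7 with 8AA became 2 without MV4-11 untreated 8 h library A or without MV4-11 8AA 8 h library B, and 1 with no filter on low counts. At 24 h it differed for 15 genes with 8CA, led by WARS (−1.75), and for 22 with 8AA, led by VARS (1.02), beside 5.78% and 5.48%, and 13.9% and 8.54%. The sign is that of 24 h minus 8 h or of MV4-11 minus KG-1a. The 2 contrasts that hold the KG-1a 8AA 24 h libraries, whose replicates differed most, gave 28 and 15 genes over time and 23 and 19 between lines without library A and without library B.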

How the results depend on the processing

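Over single genes, 5153 of 5472 alternative values kept the direction and the side of the threshold, 86 newly passed it, 233 no longer passed it and 0 changed sign while called. Counts of the 36 genes moved beyond 1.5 times in these settings. Where a log2 change beyond 0.5 was also required, the counts were 0 (8CA, 8 h), 1 (8AA, 8 h), 0 (8CA, 24 h) and 1 (8AA, 24 h) in MV4-11 and 0, 5 and 11 in KG-1a for the first 3 of these. For 8AA against 8CA they were 0 and 5 in MV4-11 and 8 and 15 in KG-1a at 8 h and 24 h. For 24 h against 8 h they were 1 (8CA) and 0 (8AA) in MV4-11 and 7 and 4 in KG-1a. Between lines they were 1 (8CA) and 0 (8AA) at 8 h, 5 and 9 at 24 h, and 13 and 14 for untreated cells at 8 h and 24 h. By construction this asks for larger changes. For 8CA at 8 h, 4 genes were called in MV4-11 from only the 4 libraries compared, and in KG-1a 7 from those 4, 5 with library size only, 5 with no filter, 5 with the replicate block and 6 in the fit of all 24 libraries. For 8AA against 8CA at 8 h in MV4-11, 11 were called with the replicate block and 4 in the fit of all 24 libraries. For 8AA over time in MV4-11, 2 were called with library size only and 3 with the replicate block. For 8AA at 8 h between lines, 4 were called with DESeq2 size factors, 1 with no filter, 4 with a minimum of 10 counts and 4 by the DESeq2 Wald test. The change of the cytosolic minus mitochondrial level in KG-1a with 8AA at 8 h was −0.27 without GARS and KARS. The cause of these shifts was not tested.

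Leaving out 1 library at a time gave 4 to 7 genes for 8CA at 8 h in MV4-11, 1 to 2 in KG-1a, 3 to 5 for 8AA against 8CA at 8 h in MV4-11, 1 to 2 for 8AA over time in MV4-11, 12 to 28 in KG-1a (28 without 8AA 24 h library A), and 2 to 8 for 8AA at 8 h between lines (2 without MV4-11 untreated 8 h library A). Deviations of same-letter libraries correlated weakly, with r from −0.078 to 0.113. With 2 libraries a group this cannot decide whether the letters A and B pair the libraries. With the replicate block, 19 single-gene values newly passed the threshold. No limit of detection was computed for the genes not called.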
